A study of Mus musculus with 8 samples.

Results

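The mitochondrial genome transcripts of mouse epidermal cells were examined in RNA-seq counts from aged and adult mice. A row of the count table was included where its gene lies on the mitochondrial chromosome, which picked the same rows as a symbol that begins with mt-. This gave 15 of 27179 rows, namely the 2 ribosomal RNA (rRNA) genes and all 13 protein-coding genes of the 37 genes annotated on that chromosome. None of the 22 transfer RNA (tRNA) genes has a row in the table used here, so tRNA was not analysed. The comparison asks how the mitochondrial RNA of epidermal cells differs with age.

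The 4 aged and 4 adult libraries came from C57BL/6J mice, and the study took 1 mouse per library. By the labels, the aged mice had an age of 73 weeks and the adult mice an age of 17 to 25 weeks. They list for every sample, adult ones included, a control IgG antibody, with 210 µg in 100 µl injected into the abdominal cavity 3 times a week over 12 weeks. In the study's methods, however, only aging mice are described as injected, and its aged mice are older. Which mice were injected, and the exact age of the aged mice, could therefore not be settled, and age and injection may not be separable here. The libraries were made from total RNA with a kit that removes cytoplasmic rRNA, although the labels call the molecule polyA RNA.

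The mitochondrial genome is a small circle of DNA, present in many copies per cell, that is read from both strands as long precursors. Excision of the tRNAs that lie between the genes releases the rRNAs and mRNAs. Its mRNAs encode core subunits of respiratory complexes I, III and IV and of ATP synthase, whose remaining subunits come from the nucleus. In epidermis, mitochondria supply energy to basal keratinocytes and are cleared when keratinocytes cornify.

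The genes lie so close that some share bases, which matters here because a read over several genes was counted for each of them. The stretches below, from the GRCm38.p6 mitochondrial sequence of RefSeq and its annotation, show the 3 overlaps longer than 1 base, with the shared bases in capitals. The first lies at chrM:7907-7989, where 43 bases belong to both ATP synthase genes. The second lies at chrM:10147-10193, with 7 shared bases. The third lies at chrM:13532-13585, where 14 bases belong to mt-Nd5 and, on the other strand, to mt-Nd6. All are printed as the plus strand. The genes mt-Atp6 and mt-Co3 share 1 base at position 8607.
mt-Atp8 to mt-Atp6: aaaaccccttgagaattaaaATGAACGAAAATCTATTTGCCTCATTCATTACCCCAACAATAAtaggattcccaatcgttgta
mt-Nd4l to mt-Nd4: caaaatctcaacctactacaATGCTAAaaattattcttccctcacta
mt-Nd5 to mt-Nd6: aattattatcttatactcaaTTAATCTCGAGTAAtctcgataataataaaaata

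Copies of mitochondrial DNA also lie in the nuclear genome, and reads that align to several places were not counted. The share of each gene's 50-base windows, the length of a read, that occurs exactly in an annotated nuclear transcript was therefore measured. It was 100% for mt-Co2, 99.9% for mt-Co3, 99.5% for mt-Atp6, 98.8% for mt-Nd4l and 97.99% for mt-Nd3. It was 62.2% for mt-Nd4 and 51.1% for mt-Co1, and 8.19% for mt-Nd2, 7.61% for mt-Nd5 and 1.04% for mt-Rnr2. No such window was found for mt-Rnr1, mt-Nd1, mt-Atp8, mt-Nd6 or mt-Cytb. Only annotated transcripts were searched, so these shares are lower limits for the genome.

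The copies belong to 15 nuclear genes, of which 7 form a block on chromosome 1 (mm10, 24611535 to 24616197) and 3 a block on chromosome 2 (22587291 to 22590533). Of the 15 genes, 1 has a row in the table, Gm20594. An example of an exact copy is the window from the middle of mt-Co3 (chrM:8974-9023), which recurs letter for letter in the pseudogene Gm28437 on the minus strand of chromosome 1 (24613555 to 24613604).
mt-Co3 window: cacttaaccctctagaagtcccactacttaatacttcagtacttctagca
A read pair spans more than 1 window and can be placed by its mate where the mate has no such copy. The copies of mt-Co2, mt-Atp6, mt-Co3, mt-Nd3 and mt-Nd4l lie together in the chromosome 1 block, so there the mate can be copied too. How many pairs each gene lost was not tested, and comparisons of levels between genes carry this uncertainty. A comparison of 1 gene between libraries rests on the same windows in each.

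Mitochondrial genes took a large and variable part of every library, and the aged and adult libraries overlapped. They held 21.0%, 17.3%, 24.3% and 25.5% of all counts in aged replicates 1 to 4, against 17.5%, 18.2%, 25.3% and 31.1% in adult replicates 1 to 4. The lowest and the highest of the adult values, in replicates 1 and 4, lay further apart than any pair of aged values. The means were 22.02 ± 3.69% in aged and 23.0 ± 6.44% in adult libraries (SD, n = 4 each), a difference of -1.01 percentage points that is smaller than either SD.

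**Figure D1:**
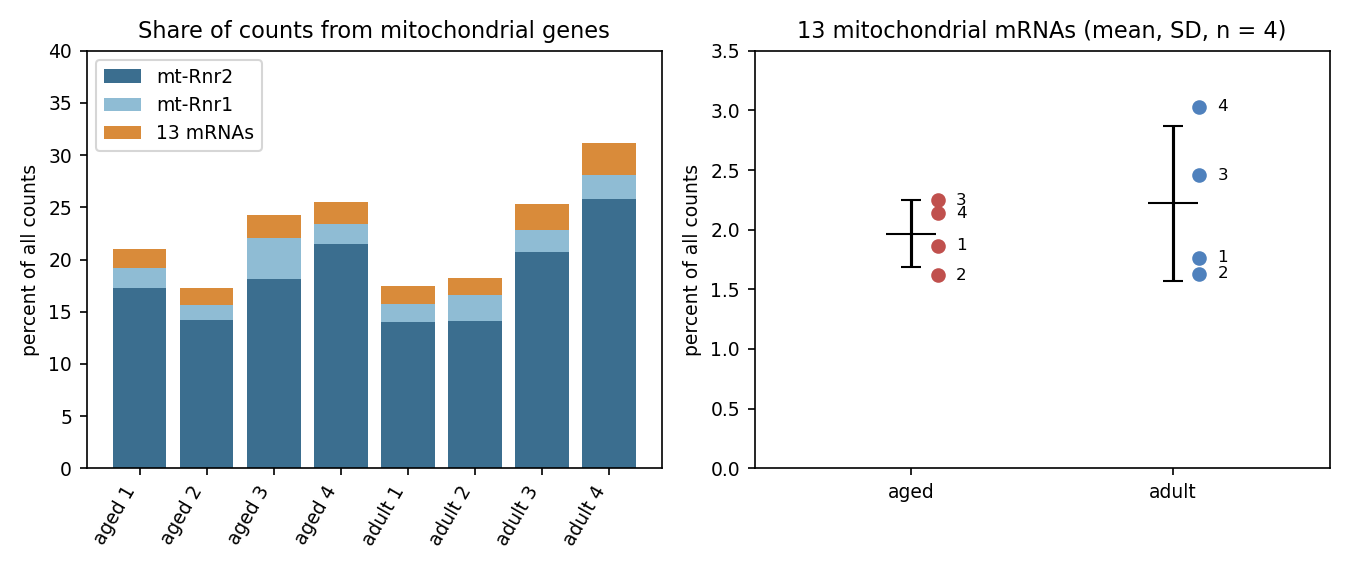
Left, the percent of all counts in each library that came from mt-Rnr2, mt-Rnr1 and the 13 mitochondrial mRNAs, as stacked bars. Right, the mRNA share alone, with 1 point per library numbered by replicate, and lines for the mean and SD (n = 4 per group). The aged mRNA shares (1.62% to 2.25%) lie within the range of the adult ones, apart from aged replicate 2, which lies just below the lowest adult value of 1.63%.

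Most of this was rRNA. The 2 rRNA genes took 19.1%, 15.7%, 22.04% and 23.4% of the counts in aged replicates 1 to 4, against 15.7%, 16.6%, 22.8% and 28.1% in adult ones. The 13 mRNAs took 1.87%, 1.62%, 2.25% and 2.14% in aged libraries, against 1.77%, 1.63%, 2.46% and 3.03% in adult libraries. Replicates 3 and 4 were above replicates 1 and 2 in both groups and for both classes. The differences of the means, -0.76 percentage points for rRNA and -0.25 for mRNA, were smaller than the SDs of either group (3.43 and 5.80 for rRNA, 0.283 and 0.651 for mRNA, aged and adult). There were 10.3, 9.67, 9.80 and 10.9 rRNA counts per mRNA count in aged replicates 1 to 4, against 8.90, 10.2, 9.29 and 9.27 in adult ones. The groups overlapped through adult replicate 2, and the difference of the means, 10.2 ± 0.57 in aged and 9.41 ± 0.55 in adult libraries, was larger than either SD. With 75027694 to 90140102 counts per library, the 95% Wilson interval of each share was at most 0.01 percentage points wide on each side, so the spread lies between libraries and not in the counting. Such intervals cover counting error only.

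Adult replicates 3 and 4 stand apart from adult replicates 1 and 2 over the whole table, where the chi-square of their counts per degree of freedom was 300 to 397. It was 82.3 between adult replicates 1 and 2 and 70.7 between 3 and 4. The aged libraries were split alike but less widely, at 136 to 242, against 97.0 between replicates 1 and 2 and 112 between 3 and 4. Without adult replicates 3 and 4, the aged mean minus the adult mean was 4.16 percentage points for all mitochondrial counts, 3.89 for rRNA and 0.27 for mRNA. All of these signs turned, but aged replicates 3 and 4, also the highest of their group, were kept. The groups compared were thus not alike in replicate numbers. Markers of the hair shaft and its inner sheath, of which 19 of 20 have a row, summed to 453, 38.9, 192 and 112.5 CPM (counts scaled to an equal library total) in aged replicates 1 to 4, against 54.3, 178, 511 and 1011 CPM in adult ones. Their highest sum fell in adult replicate 4, the library with the highest mitochondrial share, and their part in the mitochondrial values was not tested.

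The labelled cell type was borne out by its markers, since all 10 keratinocyte markers were above 1 CPM and their sum ran from 17119 to 23365 CPM in aged and from 13971 to 19428 CPM in adult libraries. Adult replicates 3 and 4 had the lowest keratinocyte sums, but the list did not move as one. Krt5, a keratin of the basal layer, had 4103, 4622, 2980 and 2714 CPM in aged replicates 1 to 4, against 3901, 3748, 1750 and 1745 CPM in adult ones. Krt10, a keratin of the layers above, had 2641, 4090, 3819 and 5862 CPM in aged libraries, against 2567, 3561, 6348 and 5332 CPM in adult libraries. Replicates 3 and 4, where the mitochondrial shares were higher, thus had less Krt5 than replicates 1 and 2 in both groups, and in adult libraries more Krt10. Immune cell markers summed to 134, 60.7, 61.5 and 51.5 CPM in aged replicates 1 to 4, against 118, 82.9, 21.2 and 48.2 CPM in adult ones. Sebocyte markers summed to 610 to 1064.5 CPM in aged and 613 to 905 CPM in adult libraries. The part of these markers in the mitochondrial values was not tested. Skeletal muscle, a tissue rich in mitochondria, was near absent, with a marker sum of 8.62 to 9.59 CPM in aged and 8.35 to 9.87 CPM in adult libraries and 9 of 12 markers below 1 CPM in every library. Pvalb, one of them, was at 0 throughout. Adipocyte markers summed to 0.18 to 2.15 CPM in aged and 0.37 to 3.68 CPM in adult libraries. In bulk samples, fewer cells of a type and less RNA per cell cannot be told apart.

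The RNA of the large mitochondrial ribosomal subunit, mt-Rnr2 (chromosome MT, 1094 to 2675), was the most abundant row of the whole table. It reached 173149, 141757, 181290 and 215090 CPM in aged replicates 1 to 4, against 140367, 141538, 206982 and 258185 CPM in adult ones. The groups overlapped, and adult replicate 4 was the highest library. The log2 fold change of aged over adult was -0.14 ± 0.48 (SE, 95% interval -1.22 to 0.94, adjusted p = 0.975 by edgeR's quasi-likelihood test).

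The RNA of the small subunit, mt-Rnr1 (chromosome MT, 70 to 1024), came next in abundance. Its level was 18299, 14822, 39103 and 18772 CPM in aged replicates 1 to 4, against 16828, 24532, 21359 and 22875 CPM in adult ones. Aged replicate 3 had the highest level, and the other aged libraries lay within or below the adult range. The log2 fold change was 0.04 ± 0.37 (interval -0.79 to 0.88, edgeR adjusted p = 0.989), and it was -0.36 without aged replicate 3.

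Both rRNAs start from the same strand and lie side by side, yet their proportion varied between libraries. There were 0.106, 0.105, 0.216 and 0.0873 counts of mt-Rnr1 per count of mt-Rnr2 in aged replicates 1 to 4, against 0.120, 0.173, 0.103 and 0.0886 in adult ones. Aged replicate 3 and adult replicate 2 had the highest ratios. The mean log2 ratio differed between aged and adult libraries by 0.03 (exact two-sided permutation test over 70 splits, p = 0.886, and p = 0.886 after adjustment over the 3 ratios tested). The smallest p this design allows is 0.0286. Without aged replicate 3 the difference was -0.25.

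The most abundant mRNA per length was mt-Co1, the catalytic subunit of complex IV, the cytochrome oxidase. It had 7486, 6841, 8425 and 9065 CPM in aged replicates 1 to 4, against 6833, 6461, 10106 and 11757 CPM in adult ones. The log2 fold change was -0.21 ± 0.30 (interval -0.88 to 0.46, edgeR adjusted p = 0.917), and the groups overlapped.

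The other complex IV mRNAs were likewise highest in adult replicates 3 and 4. mt-Co2, which binds the electron donor cytochrome c, had 1364, 1174, 1609 and 1501 CPM in aged libraries, against 1197, 1162, 1852 and 2232 CPM in adult libraries. mt-Co3, a structural core subunit, had 2424, 2143, 2709 and 3000 CPM in aged libraries, against 2174, 2038, 3146 and 3720 CPM in adult libraries. For both, adult replicate 4 was the highest and adult replicate 2 the lowest library, with log2 fold changes of -0.26 ± 0.28 for mt-Co2 and -0.17 ± 0.28 for mt-Co3.

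The only mitochondrial mRNA for complex III is mt-Cytb, the cytochrome b that passes electrons between quinone sites. It had 1874, 1569, 2213 and 1945 CPM in aged replicates 1 to 4, against 1742, 1560, 2480 and 3112 CPM in adult ones. The adult libraries spanned the aged range on both sides, and the log2 fold change was -0.30 ± 0.28 (interval -0.94 to 0.34, edgeR adjusted p = 0.885).

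The ATP synthase mRNAs share a bicistronic transcript and the 43 bases printed above. mt-Atp6, part of the proton channel, had 1461, 1276, 1837 and 1646 CPM in aged libraries, against 1554, 1336, 1910 and 2566 CPM in adult libraries. mt-Atp8, a small membrane subunit, had 491, 403, 608 and 585 CPM in aged libraries, against 532, 370, 606 and 926 CPM in adult libraries. Both were highest in adult replicate 4, and their log2 fold changes were -0.31 ± 0.27 for mt-Atp6 and -0.29 ± 0.31 for mt-Atp8.

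Complex I, the NADH dehydrogenase, takes 7 of the 13 mRNAs, all of which encode parts of its membrane arm. The most abundant, mt-Nd1, had 1513, 1325, 1738 and 1580 CPM in aged libraries, against 1351, 1217, 1873 and 2399 CPM in adult libraries. mt-Nd4 had 645, 493, 1181 and 604 CPM in aged libraries, against 757, 768, 841 and 1084 CPM in adult libraries. It was the only mRNA of the 13 whose highest library was aged replicate 3, the library that was also highest in mt-Rnr1. The other 12 were highest in adult replicate 4.

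The genes mt-Nd2 and mt-Nd5 encode antiporter-like subunits, as does mt-Nd4. mt-Nd2 had 470, 334, 696 and 440 CPM in aged replicates 1 to 4, against 525, 461, 533 and 763 CPM in adult ones. mt-Nd5 had 587, 375, 1001 and 615 CPM in aged libraries, against 651, 619, 785 and 1117 CPM in adult libraries. For both, aged replicate 2 was the lowest library.

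The lowest mRNA counts came from short genes. mt-Nd3 had 127, 110, 143 and 183 CPM in aged libraries, against 123, 88.9, 156 and 254 CPM in adult libraries. mt-Nd4l, whose last 7 bases are also the start of mt-Nd4, had 76.2, 60.2, 106 and 67.8 CPM in aged libraries, against 79.0, 70.7, 96.2 and 127 CPM in adult libraries. mt-Nd6, the only mRNA read from the other strand, had 134, 87.5, 218 and 157 CPM in aged libraries, against 142, 135, 189 and 271 CPM in adult libraries. The log2 fold changes of the 7 complex I mRNAs ran from -0.21 for mt-Nd3 to -0.37 for mt-Nd6.

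No mitochondrial gene was called as different between aged and adult cells. A gene was called at an adjusted p under 0.1 and a log2 fold change beyond 0.32 in either direction, which 20 of the 17702 tested genes passed (0.113%), 5 higher (0.0282%) and 15 lower (0.0847%) in aged libraries. All 15 mitochondrial genes passed the expression filter, and 0 of 15 were called. At an unadjusted p under 0.05, which 5.99% of all tested genes reached by edgeR, there were 0 of 15 by edgeR, 0 by DESeq2 and 0 by limma-voom. Unadjusted p-values ran from 0.242 to 0.909 and adjusted ones from 0.862 to 0.989. The aged and adult libraries overlapped in CPM for all 15 genes, where 2.62% of all tested genes did not overlap.

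The estimates of the 13 mRNAs all lay below 0, with a median log2 fold change of -0.29, where the median of all tested genes was 0.01. This common sign rested on a few libraries, and the mRNAs of a library, which varied together, are not separate observations. Without adult replicate 4 the median was -0.02 and 8 of the 15 genes lay above 0. Without adult replicates 3 and 4, with aged replicates 3 and 4 kept, it was 0.28, and 15 of 15 genes lay above 0. In fits of all 8 libraries, the median was -0.22 with a replicate block. It was -0.23 with a batch of replicates 1 and 2 against 3 and 4. In both of these fits, 15 of 15 genes lay below 0. In replicates 1 and 2 alone the median was 0.02, and in replicates 3 and 4 alone it was -0.45. Of the 15 genes, 0 were called in either, where 0% of all tested genes were called in replicates 1 and 2 (0 of 17921) and 12% in replicates 3 and 4 (2135 of 17744). In replicates 3 and 4 alone, mt-Co2 and mt-Cytb had unadjusted p-values of 0.0368 and 0.0392 by edgeR (adjusted p = 0.187 and 0.194). Without aged replicate 3, mt-Nd4 had an unadjusted p-value of 0.0221 by edgeR (adjusted p = 0.749). The share of all genes at an unadjusted p under 0.05 in these subsets was not counted, so no excess can be read from them. The 95% intervals together reached from -1.22 to 0.94, so differences of either sign within these limits remain possible.

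**Figure D2:**
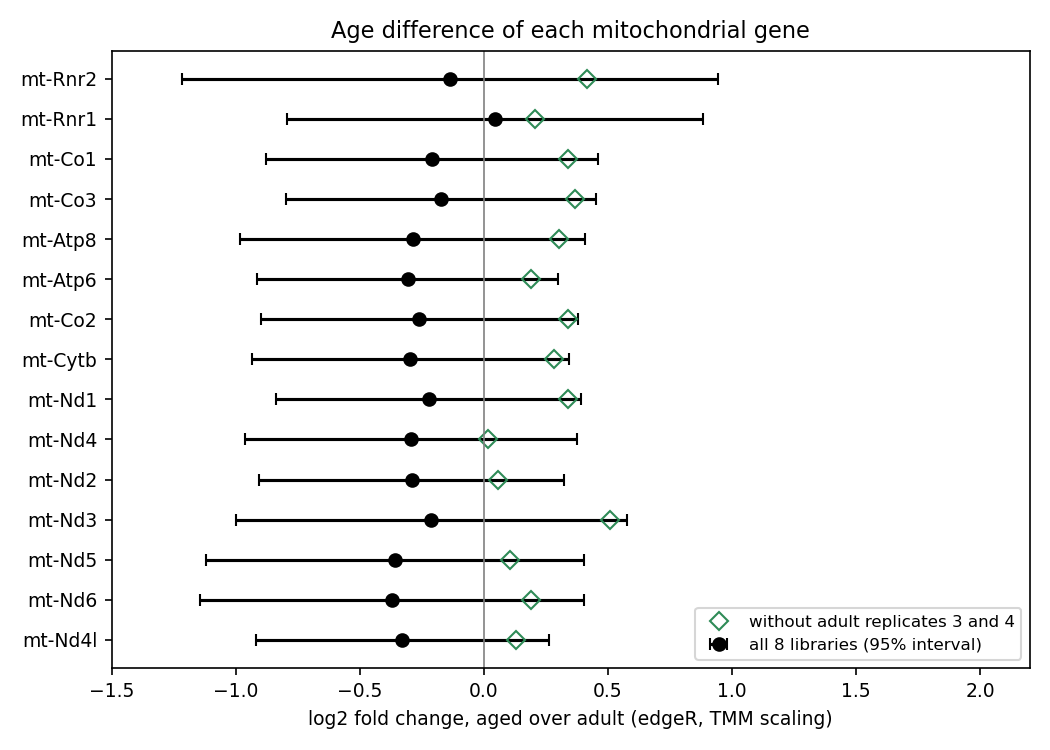
Log2 fold change of aged over adult for each of the 15 mitochondrial genes (edgeR, TMM scaling). Filled points are estimates from all 8 libraries, bars are their 95% intervals, and open diamonds are estimates without adult replicates 3 and 4. Aged replicates 3 and 4 were kept for the diamonds. All 15 intervals include 0, and all 15 diamonds lie above 0, from 0.02 for mt-Nd4 to 0.51 for mt-Nd3.

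The order of the genes by length-corrected level was much alike in aged and adult cells. Per kb of gene, mt-Rnr2 averaged 112403 ± 19045 CPM in aged and 118058 ± 35958 CPM in adult libraries (SD, n = 4 each), and mt-Rnr1 averaged 23821 ± 11565 and 22407 ± 3467 CPM per kb in aged and adult libraries. mt-Co1 followed at 5148 ± 638 in aged and 5689 ± 1662 CPM per kb in adult libraries, then mt-Co3 at 3277 ± 470 in aged and 3532 ± 1025 CPM per kb in adult libraries. These genes held the first 4 places, in this order, in all 8 libraries.

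Below them came mt-Atp8, mt-Atp6, mt-Co2, mt-Cytb and mt-Nd1, the last at 1608 ± 178 CPM per kb in aged and 1787 ± 564 CPM per kb in adult libraries. A gap followed, since mt-Nd1 exceeded the next gene, mt-Nd4, by 2.12 to 3.87 times over the 8 libraries. mt-Nd4 averaged 530 ± 223 CPM per kb in aged and 626 ± 110 CPM per kb in adult libraries. After it came mt-Nd2, mt-Nd3, mt-Nd5, mt-Nd6 and mt-Nd4l, the last at 261 ± 68.0 and 314 ± 83.8 CPM per kb in aged and adult libraries.

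Some neighbours in this order were not apart in every library. mt-Atp8 exceeded mt-Atp6 in 7 of 8 libraries, and mt-Cytb exceeded mt-Nd1, mt-Nd2 exceeded mt-Nd3 and mt-Nd6 exceeded mt-Nd4l in 7 of 8 each. mt-Nd3 exceeded mt-Nd5 in 5 of 8. Of the genes below the gap, mt-Nd3, mt-Nd4l and mt-Nd4 have most of their windows copied in the nucleus, whereas mt-Nd2, mt-Nd5 and mt-Nd6 have few or none. The mRNAs above it include mt-Co2 and mt-Co3, which are copied almost whole, and mt-Cytb and mt-Nd1, for which no copied window was found. The part of lost reads in this order was not tested.

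**Figure D3:**
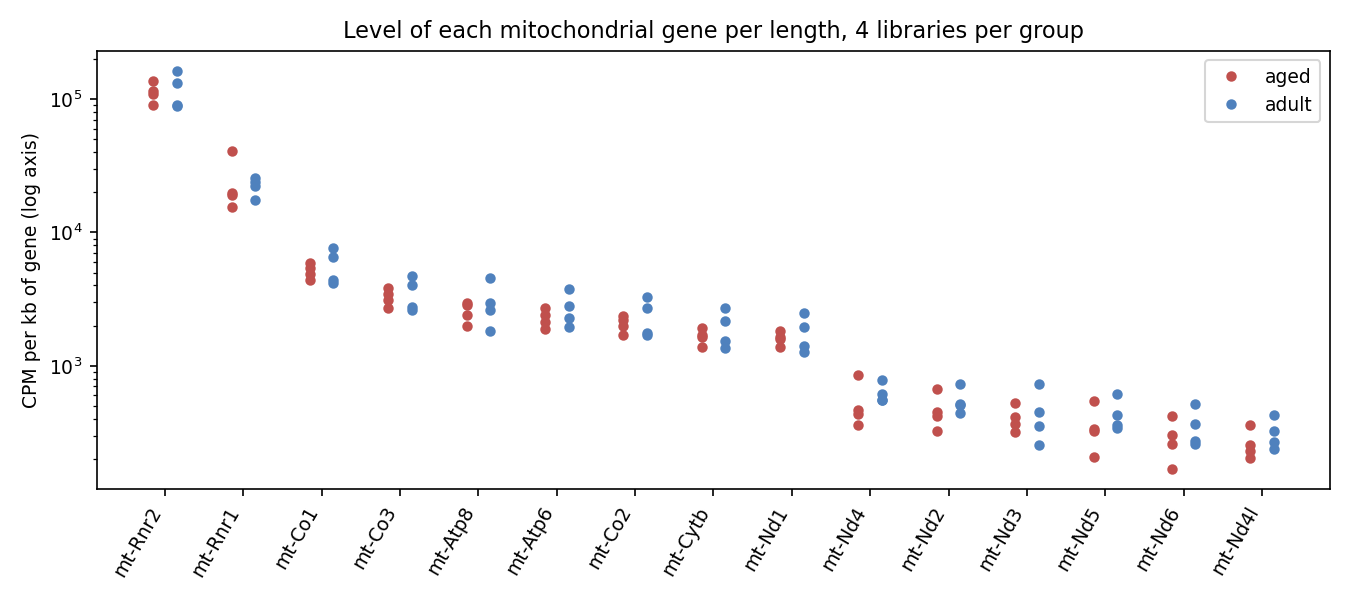
Level of each of the 15 mitochondrial genes in CPM per kb of gene, on a log axis, with 1 point per library, aged left of adult (4 libraries per group). Genes are in order of their mean level, and the step between mt-Nd1 and mt-Nd4 is visible in both groups.

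Within the mRNA pool, the shares of the respiratory complexes were similar in the age groups. Complex IV mRNAs made up 60.8 ± 3.04% of mitochondrial mRNA counts in aged and 59.2 ± 1.61% in adult libraries (SD, n = 4 each). Complex I mRNAs made up 19.0 ± 2.59% in aged and 19.8 ± 1.12% in adult libraries, mt-Cytb 9.67 ± 0.41% in aged and 9.95 ± 0.30% in adult libraries, and the ATP synthase mRNAs 10.5 ± 0.23% in aged and 11.01 ± 0.77% in adult libraries. Each difference was within 1 SD of the more variable group. mt-Co1 alone held 40.6 ± 2.30% in aged and 39.6 ± 1.13% in adult libraries.

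Ratios within a library do not depend on the scaling between libraries. There were 92.4, 90.3, 81.9 and 111 counts of mt-Rnr2 per count of mt-Cytb in aged replicates 1 to 4, against 80.6, 90.8, 83.5 and 83.0 in adult ones. The mean log2 ratio was 0.14 higher in aged libraries, which did not pass (exact two-sided permutation test, p = 0.229, adjusted p = 0.686). mt-Nd6, from the other strand, had 0.0713, 0.0557, 0.0986 and 0.0805 counts per count of mt-Cytb in aged libraries, against 0.0814, 0.0868, 0.0762 and 0.0870 in adult libraries. Its mean log2 ratio differed by -0.14 (exact two-sided permutation test, p = 0.486, adjusted p = 0.729), and aged libraries held both the lowest and the highest ratio. The sources used here do not give the strand setting of the counting, so reads of mt-Nd6 and of the RNA opposite to it may not be told apart.

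The share of mt-Nd4 in the mRNA pool was compared with the rRNA ratio after the values of both had been seen, so the test below is a description of these libraries. The share was 3.46%, 3.04%, 5.25% and 2.82% in aged replicates 1 to 4, against 4.29%, 4.72%, 3.42% and 3.57% in adult ones. Aged replicate 3 and adult replicate 2, the libraries with the most mt-Rnr1 per mt-Rnr2, had the highest shares. Over 8 libraries, Pearson's r with the log2 rRNA ratio was 0.93 (exact permutation p = 0.000967, 0.0135 after adjustment over 14 relations) and Spearman's rho 0.83 (exact permutation p = 0.0154, adjusted 0.102). Without aged replicate 3 and adult replicate 2, r was 0.68 over the remaining 6 libraries, which was not tested. The relation therefore rests largely on these 2 libraries, and neither replicate pair, at 4 libraries, is large enough for a value of its own. For the other 13 relations, the adjusted p of Pearson's r was 0.133 or higher by the exact permutation test. For mt-Nd2, mt-Nd4l and mt-Nd5, r was 0.77, 0.74 and 0.72, and for mt-Nd3, also of complex I, it was -0.73, with an adjusted p of 0.133 for each by the exact permutation test. The complex IV mRNAs mt-Co1 and mt-Co3 had r of -0.62 and -0.59 (adjusted p = 0.208 and 0.211, exact permutation test).

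A nuclear gene followed mt-Rnr2 closely, and it was chosen after its values were seen. Gm20594 (chromosome 6, 79818031 to 79818364 in RefSeq) carries the synonym Mtrnr2l, and its GENCODE transcript aligned with mt-Rnr2 over 429 bases at 90.4% identity, with a longest exact run of 65 bases. The stretch with that run is printed for both genes, with the 5 differing bases in capitals, from chrM:2042-2166 and from chr6:79818223-79818347, each on the plus strand.
mt-Rnr2 stretch: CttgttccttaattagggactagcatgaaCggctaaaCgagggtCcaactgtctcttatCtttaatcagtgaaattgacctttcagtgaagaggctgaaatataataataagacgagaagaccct
Gm20594 stretch: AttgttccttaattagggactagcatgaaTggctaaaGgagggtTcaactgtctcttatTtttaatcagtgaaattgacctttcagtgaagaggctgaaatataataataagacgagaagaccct
Gm20594 had 5045, 4215, 5454 and 6180 CPM in aged replicates 1 to 4, against 4056, 4068, 6254 and 7244 CPM in adult ones. Per 100 counts of mt-Rnr2 this was 2.91, 2.97, 3.01 and 2.87 in aged libraries, against 2.89, 2.87, 3.02 and 2.81 in adult libraries. The proportion was thus nearly the same in all 8 libraries, while the level itself ranged from 4056 to 7244 CPM. Reads that align to both genes were not counted. How many others were placed in the wrong gene was not tested, so the level of Gm20594 is uncertain.

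**Figure D4:**
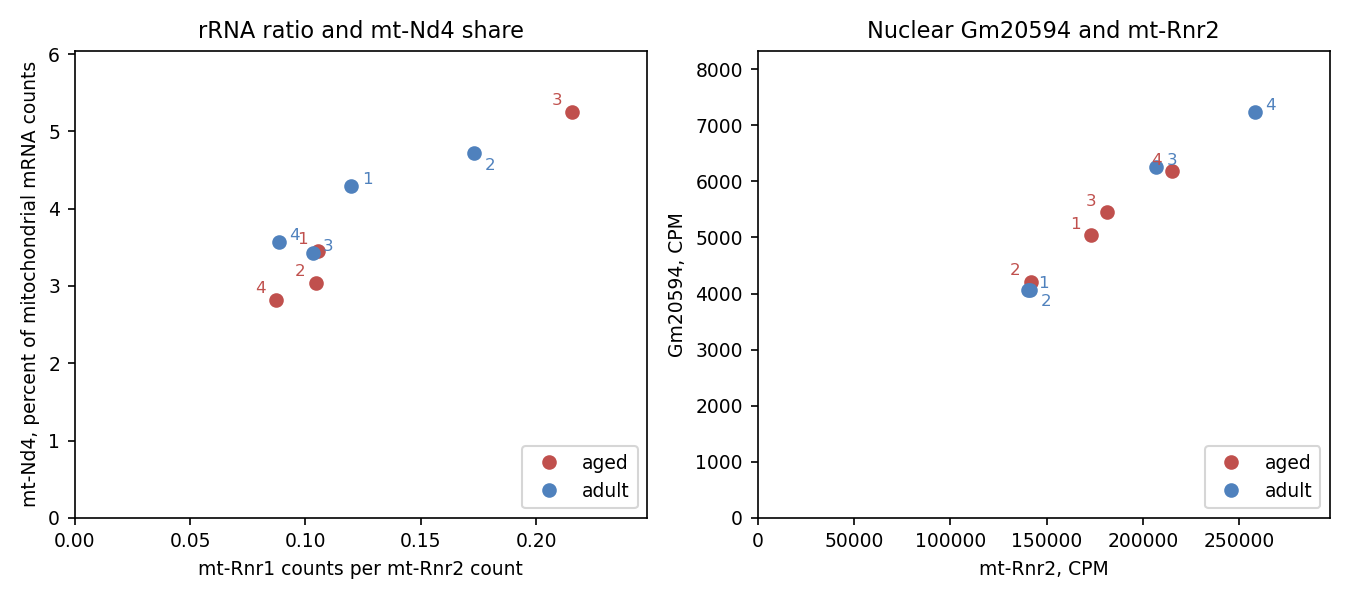
Left, the share of mt-Nd4 in mitochondrial mRNA counts (percent) against mt-Rnr1 counts per mt-Rnr2 count. Right, CPM of the nuclear gene Gm20594 against CPM of mt-Rnr2. Each point is a library, numbered by replicate. On the left aged replicate 3 and adult replicate 2 lie at the upper right, and on the right the 8 libraries lie close to a line through the origin, at 2.81 to 3.02 counts of Gm20594 per 100 of mt-Rnr2.

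Nuclear genes that serve the mitochondrial genome showed no called change either. Over 9 lists, 150 genes were tested and 0 were called by edgeR, where 0.113% of all tested genes were called. With so low a share, 0 called genes say little about these lists. At an unadjusted p under 0.05 by edgeR there were 3 of 150, where 5.99% of all tested genes reached that level. The median log2 fold change of a list ran from 0.00 for nuclear complex I subunits to 0.08 for the list on transcription and replication of mitochondrial DNA, where the median of all genes was 0.01.

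Among 17 genes of mitochondrial DNA transcription and replication, Polrmt, the mitochondrial RNA polymerase, had the smallest p. It had 17.4, 18.4, 19.3 and 15.2 CPM in aged libraries, against 19.6, 21.1, 20.7 and 19.3 CPM in adult libraries, with a log2 fold change of -0.25 ± 0.11 (edgeR adjusted p = 0.824). Its aged and adult ranges met, with only aged replicate 3 reaching the lowest adult library. Primpol, a primase-polymerase, had a log2 fold change of 0.35 ± 0.17 (edgeR adjusted p = 0.836).

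Of 22 genes of mitochondrial RNA processing and turnover, Prorp and Pnpt1 had the smallest p. Prorp is the nuclease of the complex that cuts tRNA 5′ ends out of the precursors, and its log2 fold change was 0.22 ± 0.08 (edgeR adjusted p = 0.740). Pnpt1 encodes the polynucleotide phosphorylase that degrades mitochondrial RNA, and its log2 fold change was also 0.22 ± 0.08 (edgeR adjusted p = 0.785). Both lay highest in aged replicates 1 and 2, at 18.8 and 19.5 CPM for Prorp and at 30.4 and 33.5 CPM for Pnpt1. The groups overlapped for both genes.

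Of 20 genes that modify mitochondrial rRNA and tRNA, Pus1, a pseudouridine synthase (0.13 ± 0.09), and Trmu, a tRNA-thiolating enzyme (0.11 ± 0.11), came first by p. Of 14 regulators of mitochondrial biogenesis these were the transcription factor Nrf1 (0.15 ± 0.09) and the deacetylase Sirt1 (0.33 ± 0.19). None of these 4 passed, with unadjusted p-values of 0.109 to 0.332.

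The nuclear subunits that join the mitochondrial ones were counted in the same fit. Of 36 complex I subunits, 19 had estimates above 0 and 17 below, and those with the smallest p were Ndufc1 (-0.16 ± 0.14) and Ndufa1 (0.18 ± 0.16). Complex III gave Cyc1 (-0.10 ± 0.09) and Uqcrc2 (0.10 ± 0.12), and complex IV gave Cox6c (0.10 ± 0.14) and Cox7c (0.09 ± 0.13). ATP synthase gave Atp5d (-0.18 ± 0.13) and Atp5l (0.15 ± 0.13), and complex II, which has no mitochondrially encoded subunit, gave Sdhd (0.18 ± 0.16) and Sdha (0.07 ± 0.08).

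The balance between the genomes varied more between replicates than between ages. Summed over complexes I, III, IV and ATP synthase, nuclear subunits took 5247, 5288, 3837 and 4656 CPM of non-mitochondrial counts in aged replicates 1 to 4, against 4548, 5216, 4202 and 4543 in adult ones. There were 4.50, 3.70, 7.74 and 6.17 mitochondrial mRNA counts per nuclear subunit count in aged libraries, against 4.71, 3.82, 7.83 and 9.69 in adult libraries. The means, 5.53 ± 1.80 in aged and 6.51 ± 2.73 in adult libraries (SD, n = 4 each), differed by less than either SD, and in both groups replicates 3 and 4 were above replicates 1 and 2.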

How the data were processed

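RNA of epidermal cells from 4 aged and 4 adult mice was sequenced as paired-end reads. The authors deposited raw counts per gene, made by alignment to mm10 with STAR 2.5.2b and counting with featureCounts on its inbuilt annotation. Multimapping reads were not counted, reads over several genes were counted for each, and duplicates were kept. The study fitted an experimental batch that the labels do not give, so none was used. Genes were named from RefSeq (25275 identifiers) and GENCODE (18), and 1886 kept no symbol. Libraries held 75027694 to 90140102 counts.

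Age groups were compared over the 17702 genes kept by the expression filter in edgeR 4.0.16 (quasi-likelihood fit, TMM scaling, R 4.3.3), with Benjamini-Hochberg adjustment over all of them. Levels are CPM of all counts, without TMM. On simulated data with 17702 genes, 64% of 2-fold rises and 54% of 0.5-fold changes were recovered. Ratios of single genes were compared by exact permutation in Python 3.11.15. All 15 mitochondrial genes were reported in full, with the 2 genes of smallest p from each pathway list. Members and lists were chosen with earlier results of these data known. Alternatives were other scalings and filters, DESeq2 1.42.0, voom of limma 3.58.1, a 2-level batch (replicates 1 and 2 against 3 and 4), a replicate block, other denominators and omitted libraries. The search of nuclear transcripts, in place of the genome, was chosen after seeing the data. Same-numbered aged and adult libraries correlated in their deviations from the group means (0.156 to 0.412), which took the numbers as pairs on the data alone, although unlike numbers reached 0.304 and 4 of 8 libraries correlated best with their own number. One symbol of the ATP synthase list, a synonym of Tefm, was dropped from it.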

Additional observations from a re-analysis of the deposited data

Results flagged for a closer look

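Aged replicate 3 stood apart from the other aged libraries in mt-Rnr1, at 39103 CPM, where the others had 14822 to 18772 CPM. It also stood apart in the ratio of mt-Rnr1 to mt-Rnr2, at 0.216, where the others had 0.0873 to 0.106. Both gaps exceeded Dixon's 95% critical value for 4 samples. Of 70 groups of values examined, 2 held such a gap, and chance gives about 1 in 20. Both values rest on the same gene in the same library and are not separate observations. In adult replicate 2 the ratio was 0.173.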

How the results depend on the processing

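In none of the alternatives run was a mitochondrial gene called. Over all genes, 20 were called (5 higher, 15 lower), against 13 (1 higher, 12 lower, so 92.3% lower in place of 75%) with library size alone, 190 (68 and 122) with DESeq2, 3 (1 and 2) with the replicate block, 57 (21 and 36) with the 2-level batch, 10 (3 and 7) without adult replicates 3 and 4, 0 (0 and 0) in replicates 1 and 2 alone, and 2135 (1159 and 976) in replicates 3 and 4 alone. The cause was not tested. The block changed no mitochondrial call. With each library left out in turn, 6 to 15 genes were called (1 to 4 higher, 5 to 12 lower).

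The signs of the estimates depended on the libraries. Where only adult replicates 3 and 4 were left out, aged replicates 3 and 4 stayed in. For mt-Rnr1, the log2 fold change was -0.037 by limma-voom, -0.046 with the replicate block, -0.018 with the 2-level batch and -0.31 in replicates 1 and 2 alone. Without adult replicates 3 and 4, it was 0.42 for mt-Rnr2, 0.34 for mt-Nd1, 0.058 for mt-Nd2, 0.34 for mt-Co1, 0.34 for mt-Co2, 0.30 for mt-Atp8, 0.19 for mt-Atp6, 0.37 for mt-Co3, 0.51 for mt-Nd3, 0.13 for mt-Nd4l, 0.016 for mt-Nd4, 0.11 for mt-Nd5, 0.19 for mt-Nd6 and 0.28 for mt-Cytb, with a median of 0.28 over the mRNAs. In replicates 1 and 2 alone it was 0.18 for mt-Rnr2, 0.17 for mt-Nd1, 0.13 for mt-Co1, 0.13 for mt-Co2, 0.022 for mt-Atp8, 0.14 for mt-Co3, 0.20 for mt-Nd3 and 0.087 for mt-Cytb.

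With each library left out in turn, the log2 fold change ran from -0.36 to 0.20 for mt-Rnr1, -0.30 to 0.13 for mt-Rnr2, -0.38 to 0.055 for mt-Nd1, -0.36 to 0.027 for mt-Co1, -0.43 to 0.0039 for mt-Co2, -0.49 to 0.066 for mt-Atp8, -0.32 to 0.067 for mt-Co3 and -0.43 to 0.21 for mt-Nd3. The other mRNAs stayed below 0, with ranges of -0.53 to -0.05 for mt-Nd2, -0.46 to -0.03 for mt-Atp6, -0.53 to -0.07 for mt-Nd4l, -0.64 to -0.10 for mt-Nd4, -0.66 to -0.08 for mt-Nd5, -0.62 to -0.05 for mt-Nd6 and -0.46 to -0.02 for mt-Cytb. The median of the mRNAs ran from -0.43 to -0.02.

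The difference in share of counts, aged minus adult, ran from -2.86 to 1.69 percentage points for all mitochondrial genes, -2.46 to 1.67 for rRNA and -0.45 to 0.02 for mRNA, and without adult replicates 3 and 4 it was 4.16, 3.89 and 0.27 for these classes in the same order. The log2 ratio difference ran from -0.25 to 0.22 for mt-Rnr1 over mt-Rnr2, which was -0.26 without adult replicates 3 and 4, from 0.06 to 0.21 for mt-Rnr2 over mt-Cytb and from -0.27 to -0.00013 for mt-Nd6 over mt-Cytb.

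A denominator without cytoplasmic rRNA was not run, since no row was matched by symbol to a gene of that rRNA. As 1886 identifiers carry no symbol, this does not show that none is present. The most abundant row after mt-Rnr2 and mt-Rnr1 also has no symbol, and whether it holds cytoplasmic rRNA was not tested. Further, copies in the nuclear genome itself were not searched. Depth sets no limit for these abundant RNAs. The spread between libraries does.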

Other observations

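The row that came after mt-Rnr2 and mt-Rnr1 in abundance is an identifier to which the annotations used here give no symbol, and it was chosen after its values were seen. It had 14642, 10431, 21874 and 13467 CPM in aged replicates 1 to 4, against 17778, 23371, 17797 and 19371 CPM in adult ones, and the groups overlapped. There were 0.8002, 0.704, 0.559 and 0.717 of its counts per mt-Rnr1 count in aged libraries, against 1.06, 0.953, 0.833 and 0.847 in adult libraries. This ratio was lower in every aged library than in any adult library. Among the levels of all tested genes, 2.62% did not overlap between the groups, and the share among ratios was not counted. The ratio to mt-Rnr1 was not tested, since it was chosen for this pattern. Whether the row holds cytoplasmic rRNA left in the libraries was not tested either, so what RNA the ratio describes is not known.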
